A study of Mus musculus with 16 samples.

Results

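The 10 oncofetal and imprinted growth genes were read in all 16 libraries of newborn mouse lung and liver: Afp, H19, Igf2, Dlk1, Meg3, Peg3, Gpc3, Plagl1, Cdkn1c and Igf2r. They were chosen by symbol, with earlier results of these data known. Each of the 10 matched 1 of the 25054 entries in the gene table. The pups were on a C57BL/6J background and born to Man1a2 heterozygous parents. Man1a2 encodes a mannosidase of N-glycan processing. The parents drank water with the antioxidant N-acetyl-cysteine (NAC, at most 1 g/kg) or, as placebo, plain water from before breeding until delivery. The pup groups were live WT, live Het (heterozygous), dead Het and dead null, by survival over the 24 h in which litters were checked every 8 h. Each combination of 4 pup groups, 2 treatments and 2 labelled tissues gave 1 library, made from RNA pooled over 3 experiments, or over 2 for dead Het pups. There were no live null or dead WT libraries, so death and genotype are tied in part. Dead pups were sampled at death and live pups at 24 h, so death and age are tied as well. With 1 library for each combination, p-values below measure the spread between pooled libraries of different pup groups.

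The tissue labels and the marker genes went apart, and this bears on every value below. Libraries were grouped by content: lung-content with at least 1000 CPM (counts scaled to a common library total) of Sftpc (surfactant protein C) and under 1000 CPM of Alb (albumin), liver-content with at least 50000 CPM of Alb. By this rule 7 libraries had lung content, 8 had liver content, and 1, from dead null placebo pups and labelled lung, was mixed, with 5553 CPM of Sftpc and 9280 CPM of Alb. The content matched the labelled tissue in 7 libraries and was the opposite in 8. With Sftpc and Alb, which set the grouping, left out, the summed level of 11 lung markers was 6735 to 14996 CPM in lung-content and 33.1 to 52.6 CPM in liver-content libraries. That of 11 liver markers was 240.2 to 1416 CPM and 91123 to 108527 CPM. Library totals ran from 7236865 to 16107749 counts. The ribosomal entry Rn45s took 4.05% to 26.2% of the counts of lung-content libraries. Man1a2 stood at 22.6 to 120.6 CPM over all libraries. The mutation deletes an exon and the table counts whole genes, so this level does not check the genotype. Libraries keep their labels in the names below. Both dead null NAC libraries had liver content, and the dead null placebo library labelled liver had lung content. Pup group and treatment come from the same labels as the tissue. Whether they are right was not tested, and every comparison below rests on them.

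Imprinted genes are expressed mainly from the maternal or the paternal copy, and many of them set fetal growth. Igf2, a paternally expressed growth factor, lies beside H19, a maternally expressed long noncoding RNA, and both use the same enhancers. Dlk1, a paternally expressed Notch-like transmembrane protein, lies in a cluster with the maternally expressed noncoding RNA Meg3. Afp encodes alpha-fetoprotein, the main serum protein of the fetus, which is made by fetal hepatocytes and silenced after birth.

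The genes lie on several chromosomes (GRCm38, GENCODE M21). Afp is at chr5:90490737-90508907 on the plus strand, near Alb at chr5:90460897-90476602. H19 is at chr7:142575529-142578143 and Igf2 at chr7:142650766-142666816, both on the minus strand, as are Cdkn1c at chr7:143458339-143461050 and Peg3 at chr7:6703892-6730431. Dlk1 at chr12:109452823-109463336 and Meg3 at chr12:109541001-109571726 are on the plus strand. Gpc3 is at chrX:52272426-52613950 and Igf2r at chr17:12682406-12769664 on the minus strand, and Plagl1 at chr10:13060504-13131694 on the plus strand. Exons of H19, Igf2, Meg3, Plagl1 and Cdkn1c overlap exons of other annotated genes, among them Mir675 in H19, Igf2os opposite Igf2 and Mir770 in Meg3, so their counts may include reads of those genes. The libraries were made with a stranded kit, but whether strand was used in counting is not given in the sources used here.

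The promoters of Afp, Dlk1, Meg3 and Peg3 are shown because Afp differed most between the contents, Dlk1 and Meg3 moved together, and Peg3 shares a motif with Meg3. Each is the 250 bases before the RefSeq start (GRCm38.p6), 5′ to 3′ on the gene's strand. Capitals mark matches on either strand to GTTAAT, the half-site of the liver factor HNF1, to TATAAA, the box of core promoters, or to TGACGTCA, the cAMP response element.
Afp: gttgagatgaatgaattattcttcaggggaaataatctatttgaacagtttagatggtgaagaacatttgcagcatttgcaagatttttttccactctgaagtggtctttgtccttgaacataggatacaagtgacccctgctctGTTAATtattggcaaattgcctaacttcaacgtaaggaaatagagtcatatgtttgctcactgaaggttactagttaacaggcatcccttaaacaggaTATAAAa
Dlk1: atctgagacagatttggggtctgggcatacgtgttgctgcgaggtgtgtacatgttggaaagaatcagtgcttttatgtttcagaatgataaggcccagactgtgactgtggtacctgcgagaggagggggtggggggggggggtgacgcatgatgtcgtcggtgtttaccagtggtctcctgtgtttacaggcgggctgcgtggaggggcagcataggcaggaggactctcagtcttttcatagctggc
Meg3: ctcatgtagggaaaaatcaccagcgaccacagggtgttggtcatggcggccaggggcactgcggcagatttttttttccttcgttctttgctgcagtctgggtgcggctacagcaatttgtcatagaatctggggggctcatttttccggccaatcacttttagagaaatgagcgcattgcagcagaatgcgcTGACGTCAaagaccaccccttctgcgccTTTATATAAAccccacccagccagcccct
Peg3: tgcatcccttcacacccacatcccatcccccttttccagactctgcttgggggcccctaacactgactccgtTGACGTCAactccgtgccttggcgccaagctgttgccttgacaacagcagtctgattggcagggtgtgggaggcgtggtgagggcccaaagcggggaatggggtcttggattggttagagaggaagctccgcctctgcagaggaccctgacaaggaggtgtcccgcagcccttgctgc
The Afp window is chr5:90490464-90490713, the Dlk1 window chr12:109452573-109452822, the Meg3 window chr12:109540746-109540995 and the Peg3 window chr7:6730420-6730669. RefSeq promoters matched 8 of the 10 genes, with 12 starts. Of 32851 promoter windows of this length, 6.43% held the HNF1 half-site, 12.4% the TATA box and 1.55% the cAMP response element. Afp had the letters of the HNF1 half-site 105 bases and those of the TATA box 7 bases before the RefSeq start. GENCODE puts the start of Afp further downstream, at chr5:90490737. Meg3 had a cAMP response element and TATA matches on both strands that overlap each other, while the window of its second start, chr12:109545148-109545397, held none of these letters. Peg3 had a cAMP response element. The Dlk1 window held none of these letters, which says nothing of the factors.

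The first question was how the genes stood in libraries of each content. Of the 10 genes, 8 had levels that did not overlap between lung- and liver-content libraries, against 49.8% of the 14184 genes that averaged 1 CPM or more. Of those 8, 4 were higher with liver content (Afp, H19, Igf2, Gpc3) and 4 with lung content (Meg3, Plagl1, Cdkn1c, Igf2r). This count depends on the scaling, here CPM on library totals. With the TMM scaling used in the fits, Meg3, Plagl1 and Cdkn1c overlapped. For Meg3 the lowest lung-content library then stood at 215 CPM and the highest liver-content library at 360 CPM. The share of all genes with TMM scaling was not computed. These levels are a description without a test, and in bulk RNA fewer cells of a type and less RNA per cell cannot be told apart.

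**Figure D1:**
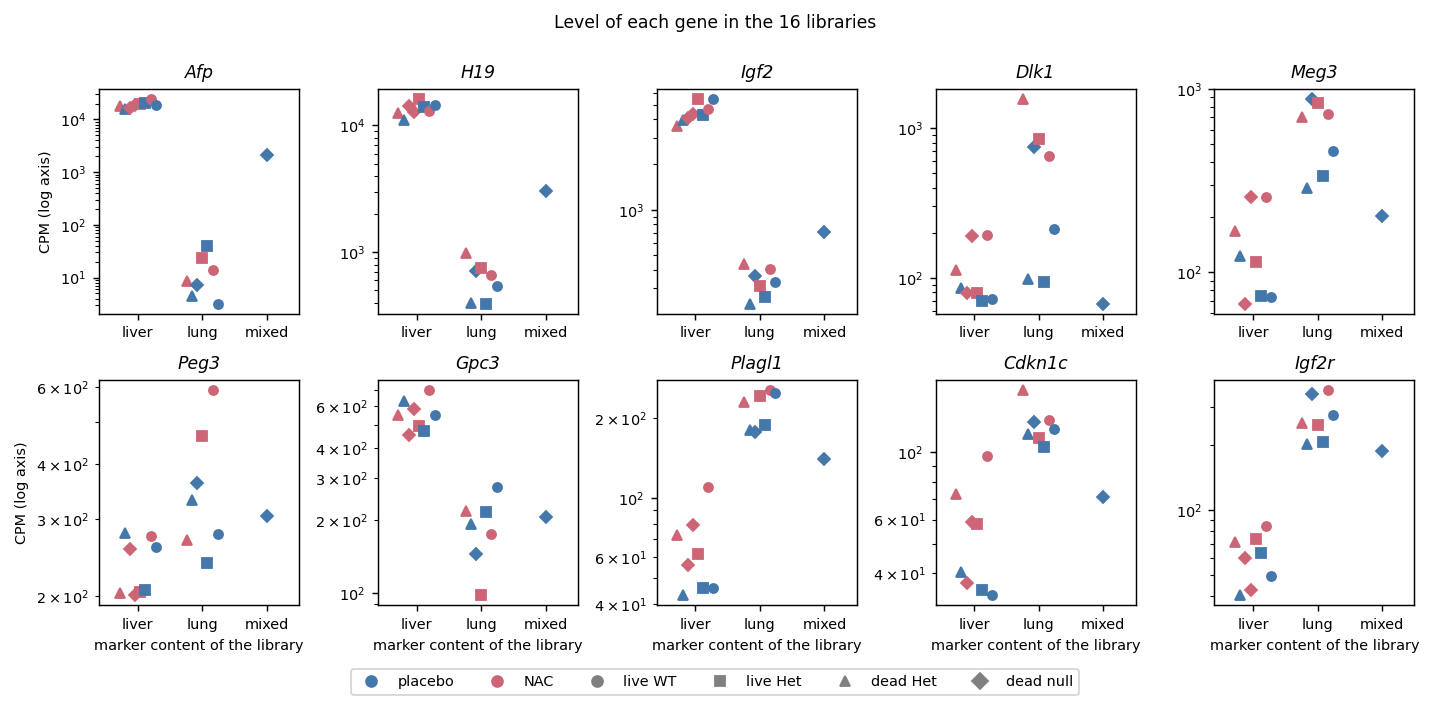
CPM (log axis) of each gene in the 16 libraries, 1 point a library, by marker content; colour gives the treatment and shape the pup group. Afp, H19, Igf2 and Gpc3 are higher in every liver-content library than in any lung-content library, and the mixed library lies between them for Afp, H19 and Igf2.

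Afp was lowest at 15841 CPM, had a median of 18741 CPM and was highest at 24687 CPM in the 8 liver-content libraries. In the 7 lung-content libraries it ran from 3.22 CPM over a median of 8.67 CPM to 39.5 CPM. The ratio of the medians was 2162. The mixed library held 2079 CPM. Afp counts were 12.1% to 43.5% of Alb counts in lung-content libraries, 16.6% to 32.0% in liver-content libraries and 22.4% in the mixed one, so the 3 ranges overlapped while the level of Afp did not. Among lung-content libraries, Afp was highest in the live Het placebo and the live Het NAC library, where Alb was also highest at 135 and 117 CPM. The part of Alb-expressing cells in the Afp level was not tested.

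H19 ran from 10974 over a median of 13549 to 16231 CPM with liver content, and from 394 over 659 to 987 CPM with lung content. Igf2 ran from 3613 over 4289 to 5455 CPM with liver content, and from 238 over 332 to 435 CPM with lung content. The medians of H19 differed 20.6-fold and those of Igf2 12.9-fold. Per kilobase of exon, H19 stood at 6.29 to 8.09 times Igf2 with liver content, at 3.48 to 5.56 times with lung content and at 9.87 times in the mixed library. The ranges of this ratio did not overlap between lung and liver content.

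**Figure D2:**
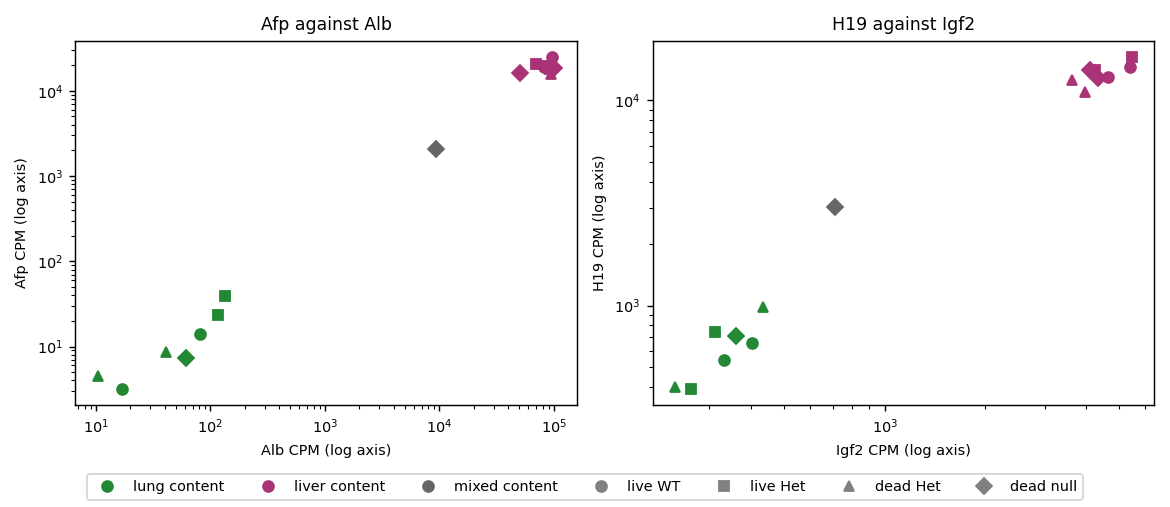
Afp against Alb and H19 against Igf2 in CPM (log axes), 1 point a library, coloured by content, with shape for the pup group. The libraries separate by content along both axes, and Afp counts are at 12.1% to 43.5% of Alb counts in lung-content libraries and 22.4% in the mixed one.

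Gpc3, a cell surface proteoglycan of the glypican family that restrains fetal growth, ran from 452 over 548 to 696 CPM with liver content and from 97.7 over 193 to 276 CPM with lung content. In CPM on library totals the other 6 genes had higher medians with lung content. Dlk1 ran from 93.2 over 646 to 1568 CPM with lung content and from 69.7 over 82.3 to 194 CPM with liver content, and these ranges overlapped. Its highest lung-content library stood 16.8-fold above its lowest, the widest spread of the 10 genes in lung-content libraries. The mixed library held 67.2 CPM of Dlk1, below each of the other libraries of either content, but this rank depends on the scaling. With Rn45s and mitochondrial entries left out of the totals it held 88.8 CPM. The liver-content live Het placebo library, labelled lung, then held 73.0 CPM.

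Meg3 ran from 289 over 705 to 884 CPM with lung content and from 67.5 over 118 to 258 CPM with liver content. Igf2r, a receptor that clears Igf2 and carries lysosomal enzymes, ran from 203 over 254 to 358 CPM and from 40.4 over 61.8 to 84.7 CPM. Plagl1, a zinc finger factor, ran from 178 over 231 to 254 CPM and from 43.2 over 59.1 to 110 CPM. In CPM on library totals none of these 3 overlapped between the contents. With TMM scaling Meg3 and Plagl1 overlapped and Igf2r did not. Cdkn1c, an inhibitor of cyclin-dependent kinases, ran from 104 over 120 to 160 CPM with lung content and from 33.8 over 49.2 to 97.1 CPM with liver content. Peg3, a zinc finger protein, ran from 238 over 331 to 589 CPM and from 201 over 231 to 278 CPM, and overlapped. Per kilobase of exon the order of the medians with lung content was H19, Dlk1, Gpc3, Cdkn1c, Igf2, Meg3, Plagl1, Igf2r, Peg3 and Afp. With liver content it was Afp, H19, Igf2, Gpc3, Cdkn1c, Peg3, Dlk1, Plagl1, Igf2r and Meg3. The medians of Afp and H19 with liver content, 5564 and 5508 CPM per kilobase, were closer than the spread over libraries, as were those of Cdkn1c and Igf2 with lung content at 58.64 and 58.02.

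The second question was whether gestational NAC went with a change of these genes. In lung-content libraries, Meg3, H19, Igf2, Dlk1, Igf2r, Plagl1 and Cdkn1c were higher with NAC than with placebo over live WT, live Het and dead Het pups, by edgeR's quasi-likelihood test with Benjamini-Hochberg adjustment over 14247 genes. These 7 of 10 stand against 26.6% of all genes called in either direction and 14.9% called higher. The 10 genes were chosen with earlier results of these data known. Dlk1, H19 and Meg3 also moved together over the lung-content libraries, so the calls are not independent and the shares are a description only. None of the 10 was called lower. The median log2FC of the 10 genes was 0.82, and that of all genes tested -0.03. The fit had 1 NAC and 1 placebo library for each of the 3 pup groups. The dead null pups had no lung-content NAC library and did not enter.

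Dlk1 had 212, 93.2 and 98.6 CPM in the placebo libraries of live WT, live Het and dead Het pups, and 646, 845 and 1568 CPM in the NAC libraries. All 3 NAC libraries were above all 3 placebo libraries. Its log2FC was 3.23 (SE 0.52, adjusted p = 0.0207), the 25th highest of the genes tested. The dead null placebo library, outside this fit, held 752 CPM, within the range of the NAC libraries. Without live Het pups the adjusted p was 0.152, without dead Het pups 0.145, with the labelled tissue as a covariate 0.109 and with no filter on low counts 0.0767, with a log2FC of 2.78 to 3.85 over all alternatives.

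Meg3 had 456, 334 and 289 CPM in the placebo and 734, 840 and 705 CPM in the NAC libraries of live WT, live Het and dead Het pups. Again no placebo library reached a NAC library, and the dead null placebo library held 884 CPM, above them all. The log2FC was 1.39 (SE 0.16, adjusted p = 0.00044). H19 had 546, 394 and 400 CPM with placebo and 659, 746 and 987 CPM with NAC, in the same order, with a log2FC of 1.13 (SE 0.17, adjusted p = 0.00181). The dead null placebo library held 715 CPM of H19, within the NAC range. Meg3 and H19 passed the test under all 8 alternatives.

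Igf2 had 332, 264 and 238 CPM with placebo and 402, 312 and 435 CPM with NAC. The groups overlapped, since the live Het NAC library was below the live WT placebo library, while NAC was higher within each pup group. The log2FC was 0.76 (SE 0.14, adjusted p = 0.00442). Igf2r (0.61, adjusted p = 0.0115), Plagl1 (0.54, adjusted p = 0.0225) and Cdkn1c (0.52, adjusted p = 0.0235) had smaller log2FC. Scaling by library size alone moved the median log2FC of all genes from -0.03 to -0.32. It left 3 of the 10 called, against 3908 of 14247 genes in all. Igf2, Igf2r, Plagl1 and Cdkn1c then missed the threshold. Igf2r, Plagl1 and Cdkn1c also missed it without live Het pups (adjusted p = 0.0993, 0.194 and 0.1249) and without live WT pups (adjusted p = 0.073, 0.053 and 0.0967).

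Peg3 had 277, 238 and 331 CPM with placebo and 589, 463 and 269 CPM with NAC. It was higher with NAC in the live WT and live Het pair and lower in the dead Het pair, with a log2FC of 0.89 (adjusted p = 0.138). Peg3 was called higher without dead Het pups (1.42, adjusted p = 6.67e-06) and with the labelled tissue as a covariate (0.60, adjusted p = 0.0034). Afp had 3.22, 39.5 and 4.57 CPM with placebo and 13.9, 23.6 and 8.67 CPM with NAC (log2FC 0.94, adjusted p = 0.246), and Gpc3 had 276, 218 and 193 CPM and then 175, 97.7 and 219 CPM (log2FC -0.25, adjusted p = 0.341). The levels of both genes overlapped between the treatments. Afp was called higher without live Het pups (1.74, adjusted p = 0.0371), and Gpc3 lower without dead Het pups (-0.51, adjusted p = 0.0323).

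**Figure D3:**
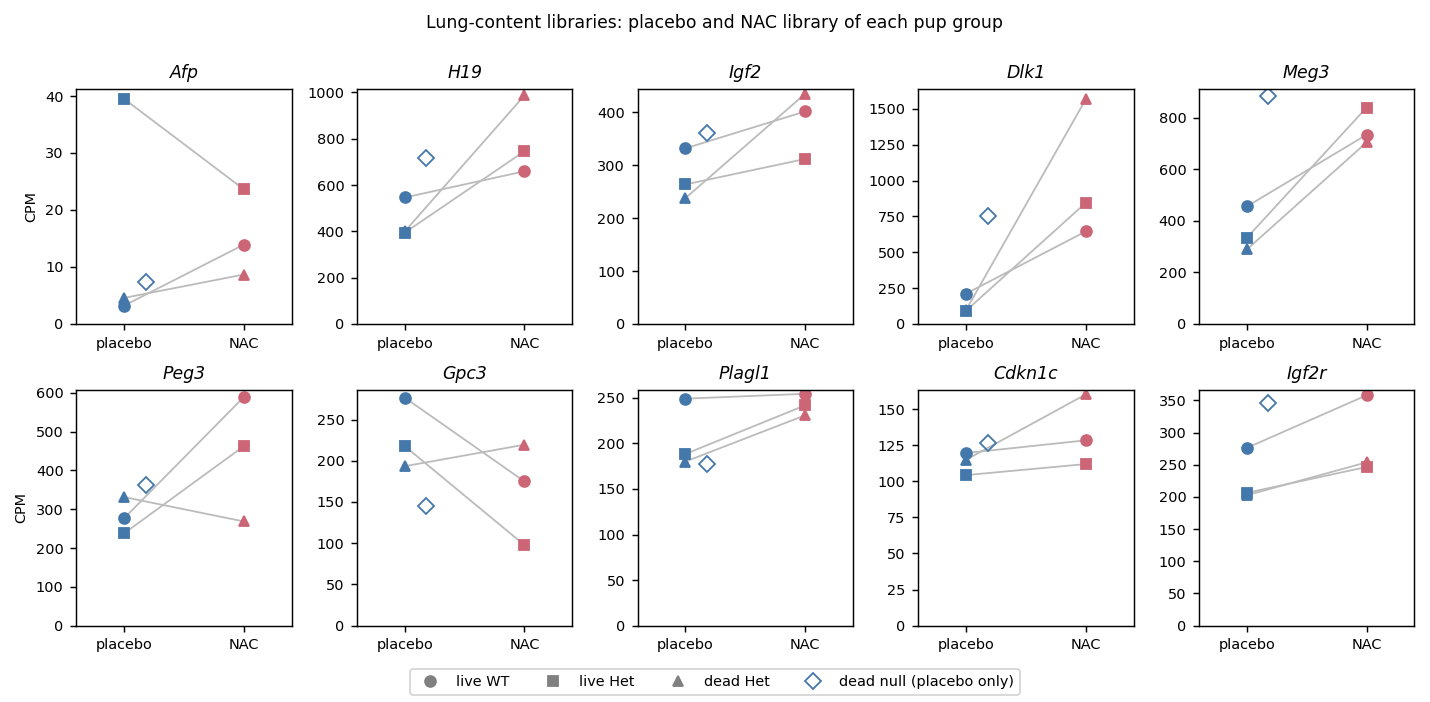
CPM of each gene in the lung-content libraries; lines join the placebo and the NAC library of a pup group, and the open diamond is the dead null placebo library, which has no NAC partner. All 3 lines rise for Dlk1, Meg3, H19, Igf2, Igf2r, Plagl1 and Cdkn1c. The open diamond lies at 752 CPM for Dlk1 and at 884 CPM for Meg3, level with or above NAC libraries.

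Related genes moved in both directions in this comparison. Of 17 other imprinted genes tested, 5 were higher and 3 lower. Rian, a maternally expressed noncoding RNA of the Dlk1 and Meg3 cluster, rose (log2FC 1.82, adjusted p = 0.0309), as did Peg10 (0.90, adjusted p = 0.0147), and Ndn fell (-0.83, adjusted p = 0.0104). The lung-content dead null placebo library, outside the fit, held 299 CPM of Rian, within the NAC range of 176 to 420 CPM. Of 14 genes of the IGF axis, 7 were higher and 3 lower. Igfbp3, a binding protein of IGFs, rose by a log2FC of 2.98 (adjusted p = 0.00028), from 37.1 to 73.7 CPM in the 3 placebo libraries to 332 to 364 CPM in the NAC libraries, with 254 CPM in the dead null placebo library. Igf1, a growth factor, fell (adjusted p = 0.00491). It held 31.4 CPM in the dead null placebo library, within the NAC range of 26.9 to 36.2 CPM.

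Of 9 other fetal liver and oncofetal genes tested, 4 were higher and 1 lower, with Igf2bp1, an RNA-binding protein, at a log2FC of 0.80 (adjusted p = 0.0144). None of 6 tested regulators of Afp, H19 and Gpc3 was called. Zhx2, a repressor of Afp and H19 after birth, had a log2FC of -0.10 (adjusted p = 0.726) and Zbtb20, a repressor of Afp, 0.64 (adjusted p = 0.0976). Among 6 imprint maintenance factors none was higher and 2 were lower, Uhrf1 (-1.14, adjusted p = 0.00668) and Dnmt1 (-0.56, adjusted p = 0.0459), which keep DNA methylation through replication. Uhrf1 had 17.2 to 17.8 CPM in the placebo and 4.64 to 8.78 CPM in the NAC libraries of the fit. The lung-content dead null placebo library, outside the fit, held 4.91 CPM of Uhrf1, within the NAC range.

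Markers of other cells moved beside these genes. Of 10 mesenchymal markers 3 were higher and 1 lower, with Pdgfra at a log2FC of 1.35 (adjusted p = 0.000332). The lung-content dead null placebo library, outside the fit, held 245 CPM of Pdgfra, within the NAC range of 167 to 255 CPM. Of 7 erythroid markers tested 4 were higher and none lower, of 10 liver markers tested 3 were higher and none lower, of 12 lung markers 1 was higher and 1 lower, and of 10 cell cycle markers 1 was higher. None of 7 muscle markers was called. The summed mesenchymal level ran from 6412 to 11288 CPM over the lung-content libraries. The part of cell makeup in the NAC comparison was not tested.

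In liver-content libraries 0 of the 10 genes passed the same test over the same 3 pup groups, against 0.065% of 13847 genes. At an unadjusted p under 0.05 there were 4 of the 10 and 1604 of all genes. DESeq2 called 1 of the 10, Cdkn1c (adjusted p = 0.0106), and 200 of 13600 genes in all. Cdkn1c had 33.8, 35.2 and 40.4 CPM in the placebo and 97.1, 57.98 and 72.6 CPM in the NAC libraries of live WT, live Het and dead Het pups. These groups did not overlap, with a log2FC of 1.04 (SE 0.22, adjusted p = 0.204 by edgeR). The log2FC of Meg3 was 0.96, of Plagl1 0.83, of Dlk1 0.68 and of Igf2r 0.62, all with an adjusted p of 0.259 or more. Afp, H19, Igf2 and Gpc3 had a log2FC of 0.19, 0.10, 0.02 and 0.09.

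Muscle transcripts moved with several of these genes in the liver-content libraries. Acta1, the skeletal muscle actin, stood at 278 CPM in the live WT NAC library, 253 CPM in the dead null NAC library labelled lung, 137 CPM in the dead Het NAC and 52.5 CPM in the dead Het placebo library, and at 3.02 to 16.4 CPM in the other 4. Dlk1 was 85.5 to 194 CPM in the former 4 and 69.7 to 79.0 CPM in the latter. Meg3 was 123 to 258 CPM and 67.5 to 114 CPM. H19 was 10974 to 13064 CPM and 14034 to 16231 CPM, and Gpc3 547.8 to 695.7 CPM and 452.3 to 547.6 CPM. In CPM on library totals these 4 genes did not overlap between the sets, which were made by the Acta1 level, and the other 6 did. The sets of Gpc3 nearly met, at 547.8 and 547.6 CPM. With TMM scaling H19 and Gpc3 overlapped, while Dlk1 and Meg3 did not. Gpc3 also overlapped with Rn45s and mitochondrial entries left out of the totals. The share of all genes without overlap between these sets was not computed, so the number of genes is a description only. The 2 dead null NAC libraries, both with liver content, differed in Dlk1 (78.9 and 191 CPM) as in Acta1 (3.70 and 253 CPM). Over the 8 libraries Pearson's r of log2(CPM + 1) with Acta1 was 0.90 for Meg3, 0.87 for Dlk1, 0.74 for Gpc3, 0.72 for Cdkn1c, 0.68 for Plagl1 and -0.68 for H19, as a description across libraries that differ in depth and pup group. The part of muscle RNA in these levels was not tested.

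**Figure D4:**
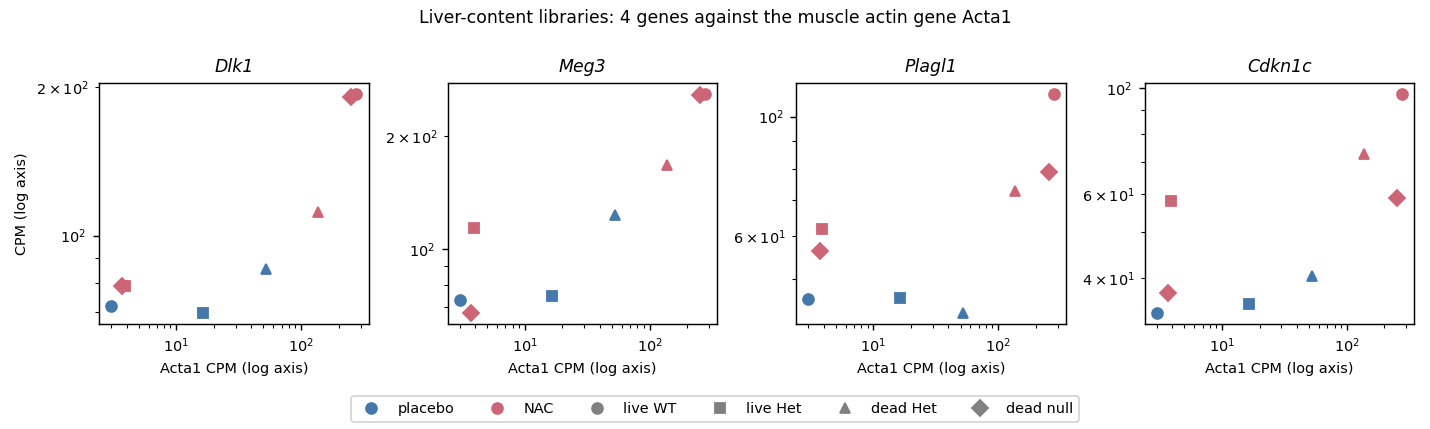
Dlk1, Meg3, Plagl1 and Cdkn1c against Acta1 in the 8 liver-content libraries, in CPM (log axes); colour gives the treatment and shape the pup group. Dlk1 and Meg3 are highest in the live WT NAC library and the dead null NAC library labelled lung, where Acta1 is 278 and 253 CPM.

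The difference of the NAC effect between the contents was tested directly. It was called for 0 of the 10 genes, against 4.4% of 15503 genes, by edgeR's quasi-likelihood test. At an unadjusted p under 0.05 there were 4 of the 10 and 3891 of all genes. DESeq2 called 3 of the 10 (H19, Igf2 and Dlk1) and 1181 of 13298 genes in all. Dlk1 had the largest difference, 2.56 on the log2 scale (SE 0.60, adjusted p = 0.053 by edgeR).

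The third comparison was dead against live pups, with treatment as a covariate. Age at sampling and, for null pups, genotype cannot be told apart from death in it. In lung-content libraries 0 of the 10 genes passed edgeR's test, against 0% of 14315 genes. DESeq2 called 0 of the 10 and 16 of 15027 genes in all. At an unadjusted p under 0.05 there were 0 of the 10 and 510 of all genes. Dlk1 had a log2FC of 1.46 (SE 0.75) and Afp of -1.55 (SE 0.88). Leaving out dead Het pups leaves the dead null placebo library as the only dead one. The log2FC was then 2.69 for Dlk1, 1.52 for Meg3, 0.84 for Peg3 and 0.87 for Igf2r. That single library is assumed there to vary like the others, so no call is drawn from this fit.

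In liver-content libraries 2 of the 4 dead libraries came from the dead null NAC pups. There 0 of the 10 passed edgeR's test, against 0% of 14017 genes. DESeq2 called 0 of the 10 and 43 of 16967 genes in all. At an unadjusted p under 0.05 there were 1 of the 10, Igf2r (log2FC -0.44, SE 0.19, adjusted p = 0.798), and 747 of all genes. The log2FC of Afp was -0.29, of H19 -0.20 and of Igf2 -0.27. The difference of the dead against live effect between the contents was called by edgeR for 0 of the 10, against 0.00638% of 15672 genes. At an unadjusted p under 0.05 there were 0 of the 10 and 705 of all genes. DESeq2 called 0 of the 10 and 8 of 19364 genes in all.

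**Figure D5:**
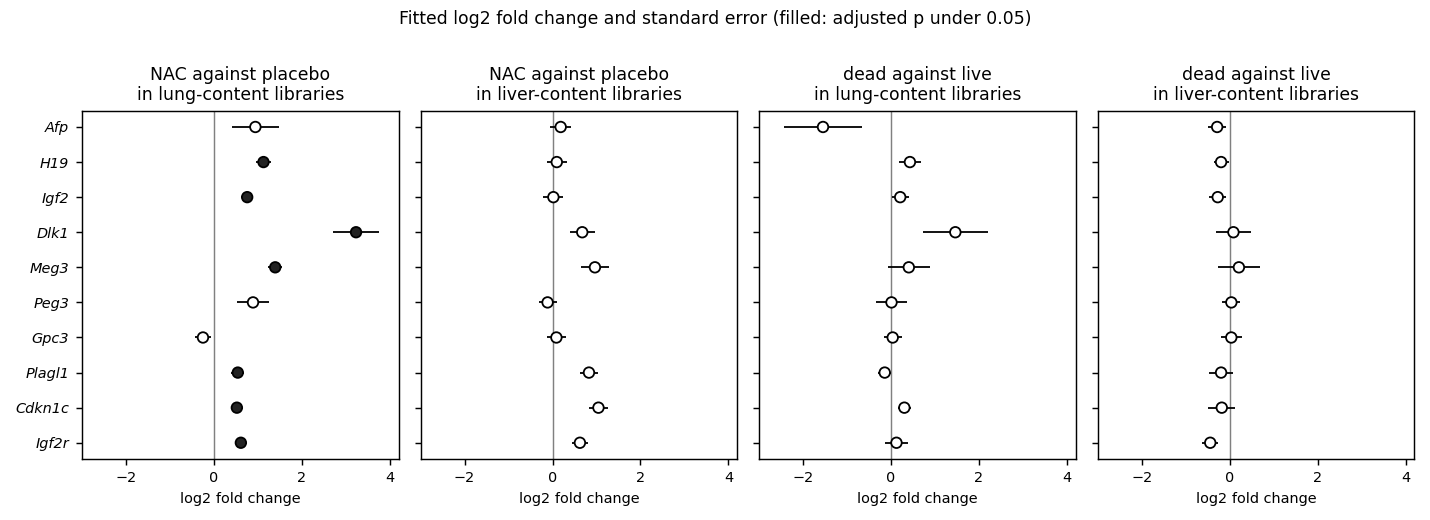
Fitted log2 fold change of each gene with its standard error (bars) in 4 comparisons; filled points have an adjusted p under 0.05. Filled points occur for 7 genes in the lung-content NAC comparison, with Dlk1 at 3.23, and in no other panel.

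Taken by label, the NAC and placebo libraries of a pup group differed in content in all 8 pairs, so these pairs compare tissues as well as treatments, and with 1 library a side they have no test. A 2-fold difference was passed by 9 of the 10 genes in live WT lung (56% of all genes), 9 in live Het lung (60.4%), 4 in dead Het lung (51.3%) and 7 in dead null lung (47%). It was passed by 5 in live WT liver (50%), 4 in live Het liver (50.4%), 9 in dead Het liver (52%) and 9 in dead null liver (55.9%). For the live Het pair labelled lung, Afp went from 20646 CPM with placebo to 23.6 CPM with NAC, the former library having liver and the latter lung content.

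The genes most like each of the 10 were sought among genes averaging 10 CPM or more, by Pearson's r of log2(CPM + 1), with no test. Over the 7 lung-content libraries Dlk1 was most like Ermap (r = 0.99) and H19 (r = 0.99), Meg3 like Mapk8ip3 and Cspg4 (0.99 and 0.98), Igf2 like Rpl11 and Spon1 (0.99 and 0.98), and Afp like Rdh7 and Fga (0.98 and 0.96). Over the 8 liver-content libraries Dlk1 was most like Actc1, the cardiac muscle actin, and Tuft1 (0.98 each), Meg3 like Hk2 and 2900026A02Rik (0.99 each), H19 like Lrrc3 and Gcat (0.97 and 0.96) and Afp like C3 and Pde4dip (0.91 and 0.89). With 7 or 8 libraries and 9799 or 9800 genes, each of the 10 genes had a partner with r of at least 0.89.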

How the data were processed

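RNA-seq libraries of newborn mouse lung and liver were used as 1 table of expected counts, which the authors deposited for mm10. The submitters' processing notes name R 4.0.3 and edgeR 3.30.3. Per the study's methods, the authors trimmed adapters, aligned reads with the Omicsoft Sequence Aligner to the Ensembl mouse genome and kept uniquely mapped reads, which can lower counts of genes with near-identical copies. The library kit was stranded. Counter settings, with the use of strand, are not given in the sources used here. Counts were rounded to whole numbers, and CPM was computed on library totals. Groups came from the labels and content from Sftpc and Alb. The genes and lists were chosen with earlier results of these data known. Comparisons across genes used edgeR 4.0.16 (TMM, low-count filter, quasi-likelihood test, Benjamini-Hochberg, adjusted p under 0.05), with pup group as a block for NAC and treatment as a covariate for death. SE is the log2FC over the root of F. DESeq2 1.42.0 was an alternative under R 4.3.3. Pairs by label used genes averaging 1 CPM or more in the pair. All 10 genes are named, with up to 4 genes of each other list by size of log2FC among those with at least 10 CPM, and Zhx2 and Zbtb20. The fits were tested on simulated data and recovered 200 of 200 changed genes (8-fold) in each of the 4 comparisons within a content. They also called 5 to 13 unchanged genes. The simulated libraries had no pup group effect, and changes smaller than 8-fold, such as those of most called genes here, were not simulated.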

Additional observations from a re-analysis of the deposited data

How the results depend on the processing

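In lung-content libraries NAC called 7 genes by the main settings (3793 of 14247 tested) and 3 with library size alone (3908 of 14247). It called 4 without live Het (957 of 14055) or live WT pups (2127 of 13940), and 8 without dead Het pups (4196 of 13997). The direction held for the 7 called genes in all 8 alternatives. In liver-content libraries DESeq2 called 1 gene against 0 by edgeR, with 200 of 13600 against 9 of 13847 genes in all. For dead against live pups in lung-content libraries, leaving out live Het, live WT or dead null pups gave 0 genes. Leaving out dead Het pups left 1 dead library, and no call is drawn from that fit. For the difference of the NAC effect between contents, DESeq2 called 3, against 1181 of 13298 genes. With the labelled tissue as a covariate 1 was called (327 of 15503). The count was 0 without live Het pups (0 of 15251), and 1 without dead Het (795 of 15240) or live WT pups (309 of 15124). By label, library size alone put 7 genes of the live Het liver pair past 2-fold against 4, and turned Peg3 in the live WT liver pair to a log2FC of -0.0143. The cause was not tested. Alternatives chosen after seeing the data were no treatment covariate and, in liver-content libraries, no library over 50 CPM of Acta1. For dead against live each called 0 of the 10 genes, but the latter left 1 dead against 3 live libraries, with the lone one assumed to vary like the others, and called 22 of 14014 genes in all, so it says nothing of stability. The NAC fits had pup group as a block, and no further pairing by replicate number could be fitted, since each group has 1 library. Afp in lung-content libraries rests on 38 to 342 counts.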
